A study of Rattus norvegicus with 33 samples.

Results

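The Negativicutes of the rat cecum, the fermentation chamber between small and large intestine, were followed through shotgun sequencing of DNA from cecal contents of 33 rats. Members were the rows of the deposited bacterial tables whose family was Selenomonadaceae, Veillonellaceae, Sporomusaceae or Acidaminococcaceae. This gave 27 of 5543 bacterial species and 11 of 1455 bacterial genera, and these were also every row that the tables assign to the class Negativicutes. Selenomonadaceae and Veillonellaceae held 10 species each, Sporomusaceae 4 and Acidaminococcaceae 3. The groups were 10 SHR and 9 WKY females and 7 SHR and 7 WKY males, all 14 to 15 weeks old when the contents were taken. SHR are spontaneously hypertensive rats, bred for hypertension that arises without treatment, and WKY are Wistar Kyoto rats, the strain they are usually set against. The labels name no treatment, transgene or diet. Rat numbers fell into separate runs for the 2 strains, and no cage, litter or sequencing batch is named, so these cannot be told apart from strain. Rats were treated as independent, and p-values would be too small where rats shared a cage or litter.

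Negativicutes are relatives of the Gram-positive Firmicutes that carry an outer membrane and therefore stain Gram-negative. Many of them live on the waste products of other fermenters. Veillonella and Megasphaera take up lactate, Phascolarctobacterium takes up succinate, and propionate is a common end product of all these routes. The 4 families are wider than lactate and succinate use, since Acidaminococcus ferments amino acids, chiefly glutamate, Megamonas ferments sugars, and Sporomusa can make acetate from hydrogen and carbon dioxide. Several names belong to bacteria described elsewhere, such as Selenomonas ruminantium and Megasphaera elsdenii from the rumen, Veillonella atypica and Selenomonas sputigena from the human mouth, Pectinatus frisingensis from spoiled beer and Sporomusa termitida from a termite gut. The names are those of the deposited tables and were not checked against reads, and closely related species can share reads.

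Every library held between 163140 and 886827 assigned reads, with a median of 365717 in SHR against 706634 in WKY females and 547938 in SHR against 688051 in WKY males. Each of the 27 species had reads in all 33 rats, with a median of 12 (Dialister massiliensis) to 168 (Acidaminococcus fermentans) reads per rat. All 27 species, 11 genera and 4 families passed the filter on low values. Within groups the variance of the 27 species was 2.15 to 13.8 times that of counting alone, so the spread between rats and not only depth set the precision.

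Negativicutes were a small part of the cecal community in every group. The 11 genera summed to 0.447 ± 0.0676% of assigned reads in SHR females (SD, n = 10) and 0.334 ± 0.0668% in WKY females (n = 9), and to 0.459 ± 0.0688% in SHR males (n = 7) and 0.403 ± 0.124% in WKY males (n = 7). Selenomonadaceae ranked 54th of 385 families by mean percent, Veillonellaceae 86th, Acidaminococcaceae 94th and Sporomusaceae 113th. Divided by each library's size factor, the scale of the deposited normalized table, the same sum averaged 2054 ± 194 normalized reads in SHR females and 1985 ± 231 in WKY females, and 2101 ± 202 in SHR males and 2367 ± 312 in WKY males. The order of the groups thus differed between percent and normalized reads, with WKY males the highest group in normalized reads and SHR males in percent.

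Selenomonas, with 7 named species, was the most abundant genus in each group. It took 0.124 ± 0.0274% of assigned reads in SHR females and 0.0877 ± 0.0259% in WKY females, and 0.120 ± 0.0294% in SHR males and 0.108 ± 0.0393% in WKY males. Acidaminococcus followed with a mean of 0.0570% over all rats, then Megasphaera with 0.0476%, Megamonas with 0.0389% and Veillonella with 0.0347%. The remaining genera fell between 0.0295% (Pelosinus, known from subsurface sediments) and 0.0126% (Methylomusa, a methanol user). Among species Selenomonas ruminantium (0.0323%) and Acidaminococcus fermentans (0.0323%) led, in places 196 and 197 of 5543 species. Dialister massiliensis was the rarest of the 27, with 0.00257%. The species named here accounted for a mean of 98.4% of the reads of Selenomonas and 98.7% of those of Acidaminococcus, but for 84.5% of those of Veillonella and 56.3% of those of Dialister, so part of the Dialister reads had no species name.

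**Figure D1:**
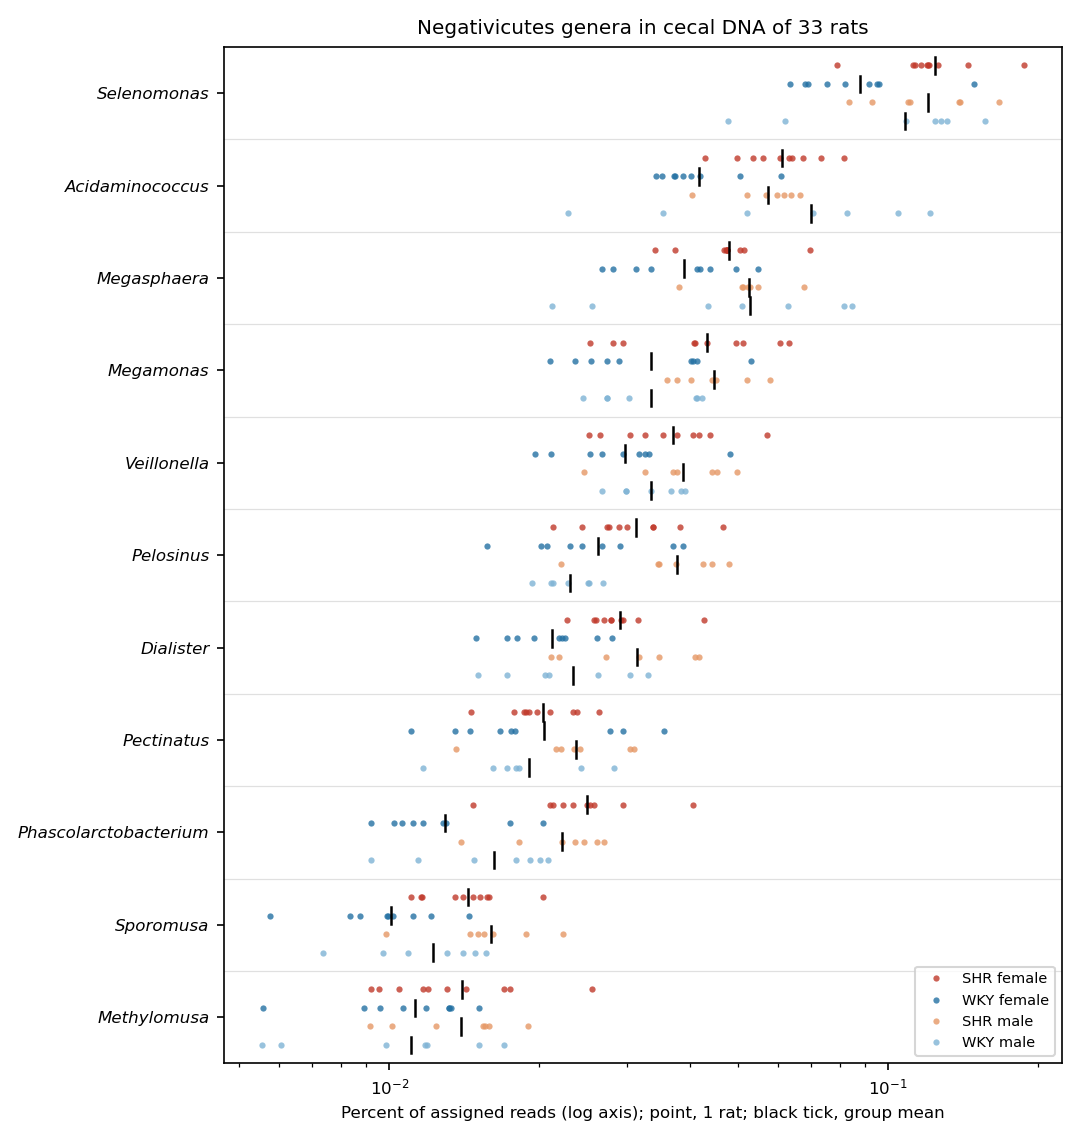
Percent of assigned reads (log axis) of the 11 Negativicutes genera, ordered by mean level from top to bottom. Each point is 1 rat, coloured by group, and the black tick is the group mean. Selenomonas stood above the other genera, and WKY males spread widely in Acidaminococcus, between 0.0228% and 0.121%.

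The make-up of the Negativicutes, taken as each genus's share of the reads of the 11 genera, does not depend on the scale used for the whole community. Selenomonas took 27.6 ± 3.4% of these reads in SHR females and 26.1 ± 3.6% in WKY females, and 26.2 ± 4.6% in SHR males and 26.3 ± 3.0% in WKY males. Phascolarctobacterium took 5.51 ± 0.87% in SHR females and 3.86 ± 0.62% in WKY females, and 4.81 ± 0.50% in SHR males and 4.11 ± 0.75% in WKY males. Acidaminococcus took 13.7 ± 1.4% in SHR females and 12.7 ± 2.0% in WKY females, and 12.5 ± 0.92% in SHR males and 16.4 ± 4.5% in WKY males. Phascolarctobacterium thus had the higher mean share in SHR of both sexes, and Acidaminococcus had the highest mean and the widest spread in WKY males. Selenomonadaceae made up a mean of 40.2% to 42.1% of the reads of the 11 genera in every group.

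**Figure D2:**
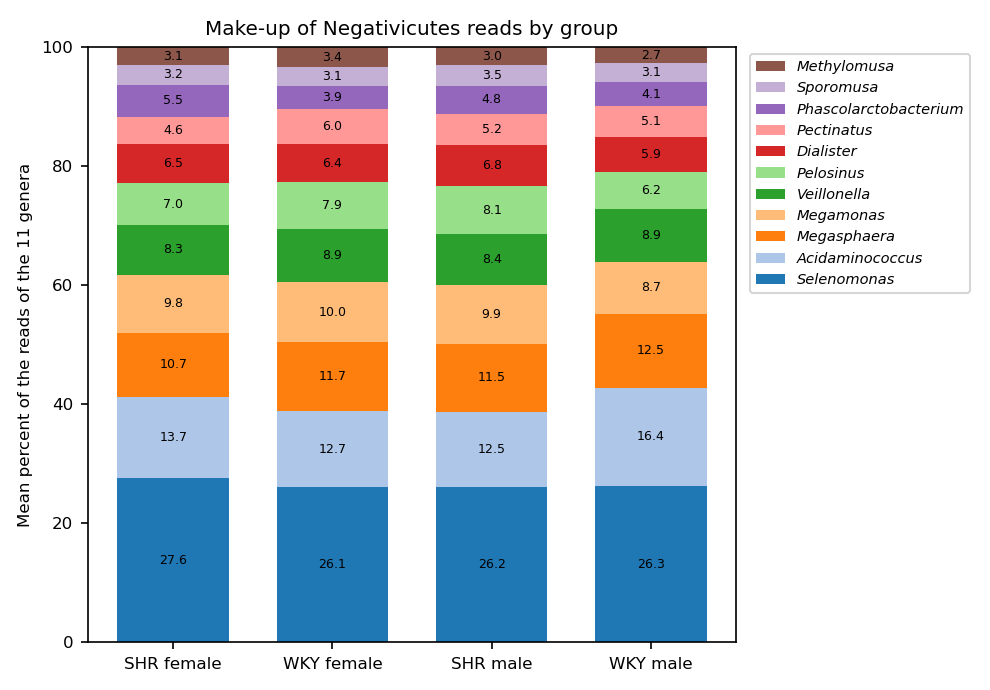
Mean share of each genus in the reads of the 11 Negativicutes genera (percent, numbers inside the bars) for the 4 groups. Selenomonas took 26.1% to 27.6% in every group, Acidaminococcus was largest in WKY males (16.4%) and Phascolarctobacterium largest in SHR females (5.51%).

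The first comparison asked how the strains differed in females. Phascolarctobacterium faecium, a succinate user and the single species of its genus here, was higher in SHR females, and so was Dialister hominis, while Veillonella atypica, a lactate user, was lower, but none of the 3 passed on the main scale. Of 27 species 0 were called by limma on log2(normalized reads + 1) at an adjusted p under 0.05, against 2.33% of all 4641 species. An unadjusted p under 0.05 was found for 6 of the 27, against 785 of all 4641. Among genera 0 of 11 were called, against 0.917% of all genera, and 1 had an unadjusted p under 0.05, against 233 of 1418. Among families 0 of 4 were called, against 1.05% of all families, and 1 had an unadjusted p under 0.05, against 62 of 382. The median log2 difference of the 27 species was 0.11, beside -0.066 over all species. Of the 27, 17 were above 0, against 43.3% of all species.

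Phascolarctobacterium faecium had 75.1 normalized reads in the lowest SHR female, 112.9 at the median and 168.2 in the highest, against 60.6, 68.5 and 125.5 in WKY females. All 10 SHR females stood above the WKY median, and the groups overlapped, with SHR female 5 the lowest of its group at 75.1 and WKY females 1, 5 and 9 at 125.5, 81.8 and 90.0. The mean was 113.8 ± 25.2 in SHR females and 77.4 ± 20.4 in WKY females (SD, n = 10 and 9). The log2 difference was 0.56 ± 0.17 (SE), with a 95% interval of 0.23 to 0.88 and a limma adjusted p of 0.0599. As a genus, whose reads are the same, it had a limma adjusted p of 0.0504 over 1418 genera. On the recovered whole reads edgeR gave the genus an adjusted p of 0.0246 and DESeq2 0.00991.

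Dialister hominis ranged from 9.11 to 44.3 normalized reads in SHR females, with a median of 18.9, against 3.19 to 17.8 in WKY females, with a median of 12.5. In SHR females 6 of 10 exceeded every WKY female. The log2 difference was 0.86 ± 0.26, with a limma adjusted p of 0.0728, an edgeR adjusted p of 0.0325 and a DESeq2 adjusted p of 0.0138. These levels rest on few reads, 5 to 50 in an SHR female and 4 to 20 in a WKY female. Veillonella atypica ranged from 6.51 to 31.4 normalized reads in SHR females, with a median of 14.1, against 13.3 to 67.1 in WKY females, with a median of 28.6. In SHR females 9 of 10 were below the WKY median. Its log2 difference was -0.91 ± 0.29, with a limma adjusted p of 0.0832, an edgeR adjusted p of 0.0601 and a DESeq2 adjusted p of 0.0490. The other 4 named species of Veillonella did not follow V. atypica, with log2 differences from -0.066 (Veillonella rodentium, of rodent mouths) to 0.66 (Veillonella sp. T1-7).

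**Figure D3:**
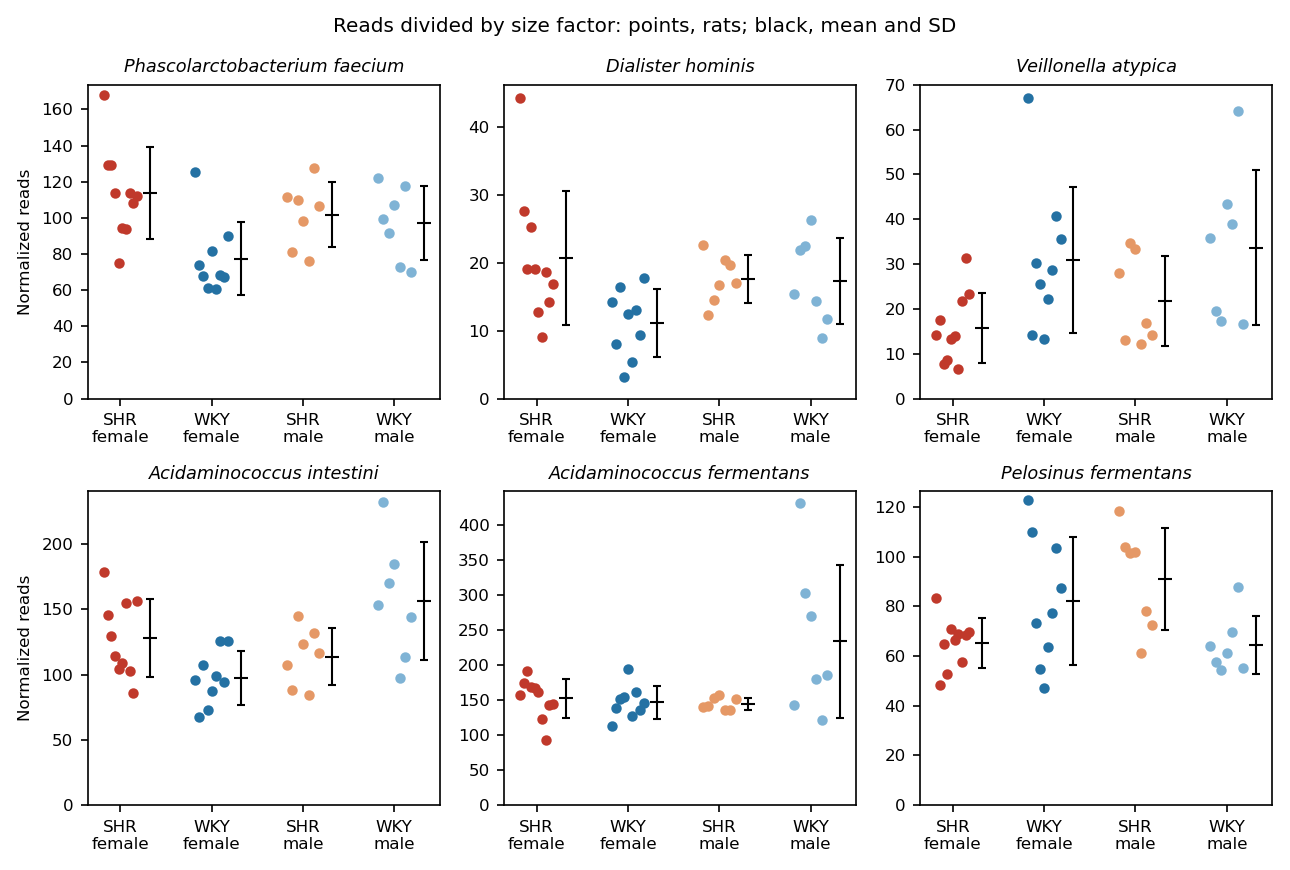
Normalized reads (reads divided by the library's size factor) of 6 species in each rat, with group means and SD in black. Phascolarctobacterium faecium and Dialister hominis were higher and Veillonella atypica lower in most SHR females than in WKY females, and 3 WKY males carried the highest values of Acidaminococcus fermentans. Groups overlapped in each of the 6 panels.

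Count tests on the recovered reads called more members than limma did. For species in females edgeR called 2 of 27, against 3.71% of all species, and DESeq2 called 3 of 27, against 5.26% of all species. These were Phascolarctobacterium faecium and Dialister hominis with both tools, and Veillonella atypica with DESeq2. Among genera each tool called Phascolarctobacterium alone, against 1.62% of all genera by edgeR and 3.67% by DESeq2. Neither tool called a family, and the share of all families they called is not given.

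The percent scale gave higher values for SHR, for the members and for most other bacteria. Over all species the median log2 difference in females was 0.29 on the percent scale and -0.066 on the size-factor scale, and for the 27 members it was 0.48 and 0.11. On percent, 5 of 27 species were called, all higher in SHR females, against 7.48% of all species. They were Phascolarctobacterium faecium (0.93 ± 0.20, limma adjusted p 0.00443), Dialister hominis (1.23 ± 0.29, 0.0107), Acidaminococcus intestini (0.76 ± 0.22, 0.0251), Veillonella sp. T1-7 (1.02 ± 0.32, 0.0374) and Selenomonas sp. oral taxon 478 (0.86 ± 0.27, 0.0445). Phascolarctobacterium took 0.0249 ± 0.0068% of assigned reads in SHR females and 0.0129 ± 0.0036% in WKY females, and was the 1 of 11 genera called (limma adjusted p 0.00245), against 10.9% of all genera. Acidaminococcaceae (0.67 ± 0.18, limma adjusted p 0.0135) and Selenomonadaceae (0.44 ± 0.16, 0.0464) were 2 of 4 families called, against 18.6% of all families. Libraries of SHR females were the shallower ones, and without the 3 shallowest libraries, SHR females 9 and 10 and SHR male 4, limma on normalized reads called Dialister hominis (0.93, adjusted p 0.0458), Veillonella atypica (-1.13, 0.0192) and the genus Phascolarctobacterium (0.56, 0.0360). The share of all species or genera called without these libraries is not given.

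**Figure D4:**
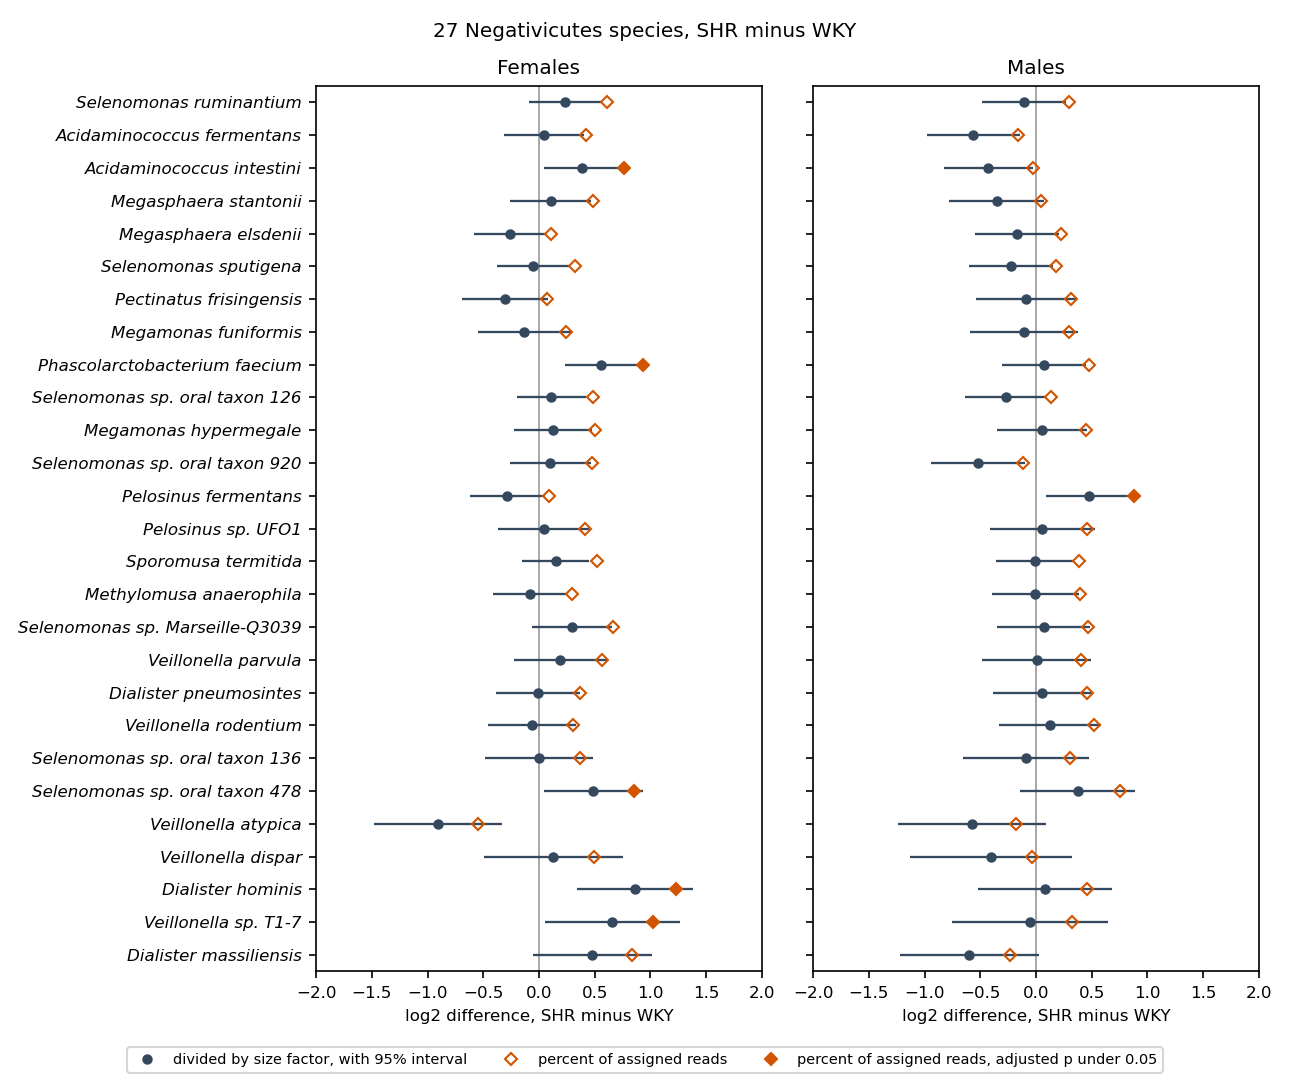
log2 difference, SHR minus WKY, of the 27 species in females (left) and males (right), ordered by mean level. Filled circles with lines are the size-factor scale with its 95% interval and diamonds the percent scale, filled where the adjusted p was under 0.05. The diamonds lie to the right of the circles for every species, and 5 species in females and 1 in males were called on percent.

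The second comparison asked the same of males. There the members with the lowest p were species of Acidaminococcus, lower in SHR males, and Pelosinus fermentans, a fermenter of lactate first found in clay, higher in SHR males. No species passed: 0 of 27 were called by limma on normalized reads, against 0.539% of all species. edgeR called 0, against 1.27% of all species, and DESeq2 1, against 3.75%. By limma 4 of 27 had an unadjusted p under 0.05, against 638 of 4641 species. Likewise limma called 0 of 11 genera and 0 of 4 families, against 0% of all genera and 0% of all families. Neither edgeR nor DESeq2 called a family, with no share of all families given for these tools. By limma 1 of 11 genera had an unadjusted p under 0.05, against 164 of 1418, and 1 of 4 families, against 38 of 382. The median log2 difference of the 27 species was -0.086, beside -0.019 over all species. Of the 27, 17 were below 0 and 10 above, where 48.1% of all species were above 0.

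Acidaminococcus had 255.7, 232.9, 310.0, 283.8, 220.7, 269.6 and 268.3 normalized reads in SHR males 1 to 7, against 306.7, 669.5, 475.5, 462.0, 279.5, 235.4 and 333.9 in WKY males 1 to 7. All 7 SHR males were below the WKY median, and WKY males 2, 3 and 4 were above every other rat of the study. The log2 difference was -0.51 ± 0.16, with a 95% interval of -0.82 to -0.19 and a limma adjusted p of 0.148. edgeR gave an adjusted p of 0.0498 and DESeq2 one of 0.0173, and Acidaminococcus was the 1 of 11 genera that each called, against 0.917% of all genera by edgeR and 1.83% by DESeq2. The direction came from both species, with log2 differences of -0.56 ± 0.21 for Acidaminococcus fermentans (limma adjusted p 0.206, DESeq2 adjusted p 0.0299) and -0.43 ± 0.20 for Acidaminococcus intestini (limma adjusted p 0.335). On the percent scale the genus averaged 0.0574 ± 0.0088% in SHR males and 0.0699 ± 0.0359% in WKY males, with a log2 difference of -0.10 ± 0.23 (limma adjusted p 0.752).

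Pelosinus fermentans had 61.2 to 118.5 normalized reads in SHR males, with a median of 101.4, against 54.4 to 87.9 in WKY males, with a median of 61.3. In SHR males 4 of 7 exceeded every WKY male. The log2 difference was 0.48 ± 0.20 (limma adjusted p 0.251), and 0.88 ± 0.22 on the percent scale (limma adjusted p 0.0164). It was the 1 of 27 species called on percent in males, against 3.73% of all species. Pelosinus (0.67 ± 0.20, limma adjusted p 0.0418) was the 1 of 11 genera called on percent, against 5.29% of all genera, and Sporomusaceae, its family, the 1 of 4 families (0.54 ± 0.17, limma adjusted p 0.0499), against 6.54% of all families. Its sister Pelosinus sp. UFO1 stood at 0.056 on the size-factor scale. Selenomonas sp. oral taxon 920 was lower in SHR males, with 37.1 to 93.7 normalized reads against 76.8 to 102.5 in WKY males. All 7 SHR males were below the WKY median and 6 of 7 below every WKY male, and the log2 difference of -0.52 ± 0.22 had a limma adjusted p of 0.251. On percent only SHR male 5 was below every WKY male. The species took 0.00678% to 0.0216% of assigned reads in SHR males and 0.00766% to 0.0210% in WKY males.

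On the size-factor scale several abundant members showed no difference between the strains that could be told from the spread between rats. For Selenomonas ruminantium, which turns lactate and succinate into propionate in the rumen, the 95% interval of the log2 difference was -0.090 to 0.56 in females and -0.48 to 0.27 in males. For Megasphaera elsdenii, the rumen's lactate user, it was -0.59 to 0.059 in females and -0.55 to 0.20 in males. Megamonas funiformis, a sugar fermenter, had an interval of -0.55 to 0.28 in females and -0.59 to 0.38 in males. On percent the median of all species was shifted by 0.36 in SHR males, and the difference of each of these 3 species was above 0 there. In females each was also above 0 on percent and none was called, with 0.11 for Megasphaera elsdenii and 0.24 for Megamonas funiformis. Selenomonas ruminantium took 0.0245% to 0.0574% of assigned reads in SHR females. WKY female 5 had 0.0413% and the other WKY females 0.0188% to 0.0262%. On both scales the difference of Selenomonas ruminantium in females was above 0 and not called.

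Between the sexes, Acidaminococcus and its family Acidaminococcaceae were lower in females than in males of WKY, and these were the only member differences that limma called on the size-factor scale. Its normalized reads were 211.1, 214.1, 259.4, 232.6, 285.9, 228.0, 295.8, 237.5 and 278.0 in WKY females 1 to 9, against the values of 235.4 to 669.5 in WKY males given above. All 9 females were below the male median and 4 of 9 below every male. The log2 difference, female minus male, was -0.59 ± 0.15 (limma adjusted p 0.0331, edgeR 0.0133, DESeq2 0.00301), the 1 of 11 genera called, against 2.4% of all genera. The family Acidaminococcaceae differed by -0.55 ± 0.13 (limma adjusted p 0.0161, edgeR 0.00173), with 321.7 ± 34.3 normalized reads in WKY females and 487.5 ± 151.4 in WKY males, the 1 of 4 families called, against 4.19% of all families. Both calls ended on the percent scale, where Acidaminococcus had a log2 difference of -0.56 ± 0.22 (limma adjusted p 0.296) and Acidaminococcaceae one of -0.53 ± 0.20 (0.277), and where 0% of all genera and 0% of all families were called. Leaving out WKY male 2, 3, 4 or 5 or WKY female 4, 6, 7 or 8 also ended the call of the genus, with limma adjusted p-values over the 33 such fits of 0.0202 to 0.103, while the family was called in 33 of 33 (0.00454 to 0.0463).

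At the species level limma called 0 of 27 between the sexes of WKY, against 0.711% of all species. On percent it called 0, against 0.0646%. On normalized reads 7 of 27 had an unadjusted p under 0.05, against 651 of 4641 species. So had 3 of 11 genera, against 192 of 1418, and 3 of 4 families, against 52 of 382. On percent it was 1 of 11 genera, against 137 of 1418, and 1 of 4 families, against 32 of 382. edgeR called 0 of 27, against 1.7% of all species, and DESeq2 called 3 of 27, against 3.92%. Those 3 were Acidaminococcus intestini (-0.66 ± 0.19, limma adjusted p 0.0911), Acidaminococcus fermentans (-0.56 ± 0.20, 0.183) and Megasphaera stantonii, a butyrate producer described from chickens (-0.59 ± 0.20, 0.157). Megasphaera stantonii had 76.6 to 174.1 normalized reads in WKY females, with a median of 96.2, against 105.5 to 283.6 in WKY males, with a median of 129.8, and the same WKY males 2, 3 and 4 were its highest. Of the 27 species 21 had a log2 difference below 0 between WKY females and WKY males, with a median of -0.21, beside -0.0022 over all species. The other 6 were above 0, as were 49.75% of all species. In SHR no member was called between females and males by limma, edgeR or DESeq2, with no share of all features given for edgeR or DESeq2. limma called 0% of all species, 0% of all genera and 0% of all families. An unadjusted p under 0.05 was found for 2 of 27 species, against 167 of 4641. It was found for 0 of 11 genera, against 45 of 1418, and 0 of 4 families, against 8 of 382. The median log2 difference of the 27 species in SHR was -0.0053.

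On normalized reads, but not on percent, the strain difference of Acidaminococcaceae was above 0 in females and below 0 in males. The family averaged 394.4 ± 60.1 normalized reads in SHR females and 321.7 ± 34.3 in WKY females, a log2 difference of 0.29 ± 0.12 (limma adjusted p 0.186). It averaged 360.4 ± 42.2 in SHR males and 487.5 ± 151.4 in WKY males, a log2 difference of -0.39 ± 0.13 (limma adjusted p 0.264). On percent both differences were above 0, with 0.67 ± 0.18 in females and 0.016 ± 0.21 in males. The test of the difference between these differences gave 0.67 ± 0.18 (strain by sex, limma adjusted p 0.0558), so it did not pass, and on percent it was 0.65 ± 0.28 (limma adjusted p 0.9995). edgeR gave it an adjusted p of 0.0142 and DESeq2 one of 0.00367, and it was the 1 of 4 families that each called, against 1.57% of all families by edgeR and 1.57% by DESeq2. By limma 0 of 27 species, 0 of 11 genera and 0 of 4 families were called for strain by sex. The shares called were 0.0215% of all species, 0% of all genera and 0% of all families. An unadjusted p under 0.05 was found for 5 of 27 species, against 308 of 4641. It was found for 2 of 11 genera, against 87 of 1418, and 1 of 4 families, against 12 of 382. edgeR and DESeq2 called 0 species and 0 genera, with no share of all species or genera given for these tools. Among species the lowest p belonged to Acidaminococcus intestini (0.81 ± 0.27, limma adjusted p 0.572) and Pelosinus fermentans (-0.76 ± 0.26, 0.584).

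Species of one genus could vary together from rat to rat. Pairs from different genera were not tested, so this is not shown to be particular to a genus. For example, WKY females 2 and 9 had the most normalized reads of Megamonas funiformis in their group (198.0 and 172.0). They also had the most of Pelosinus sp. UFO1 (111.1 and 106.0), a species of another family. For the 4 genera with exactly 2 species, the log2 normalized reads were centred on their group means and correlated over the 33 rats, with p from 100000 permutations within groups and adjusted over the 4 pairs. The pair in Megamonas followed each other most closely (Pearson r = 0.75, permutation adjusted p 4e-05, Spearman rho = 0.79, permutation adjusted p 4e-05), with r of 0.69 to 0.82 within each group and 0.76 without the 2 rats farthest from the median. The permutation p of 1e-05 behind it is the smallest that these permutations can give. The pair in Pelosinus had r = 0.60 (permutation adjusted p 0.00204) and rho = 0.62 (permutation adjusted p 0.00106), and r was 0.52 without the 2 farthest rats. Within groups it was 0.31 in SHR females and 0.82 in WKY females, and 0.20 in SHR males and 0.88 in WKY males.

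The pair in Acidaminococcus had r = 0.44 (raw permutation p 0.0338, adjusted p 0.0450) and rho = 0.37 (raw permutation p 0.0578, adjusted p 0.0578). Without WKY males 2 and 5, the 2 rats farthest from the median in Acidaminococcus intestini, r was 0.29, so the pooled relation was weaker without them. Within groups r was 0.15 in SHR females and 0.019 in WKY females, and 0.56 in SHR males and 0.80 in WKY males. The pair in Megasphaera had r = 0.40 (raw permutation p 0.0483, adjusted p 0.0483) and rho = 0.40 (raw permutation p 0.0390, adjusted p 0.0520). Without the 2 farthest rats r was 0.36. The relation differed between groups, with r of 0.85 in WKY males, 0.55 in SHR females, -0.15 in SHR males and -0.13 in WKY females. Both species of a pair come from the same library, and how far they shared reads was not tested.

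**Figure D5:**
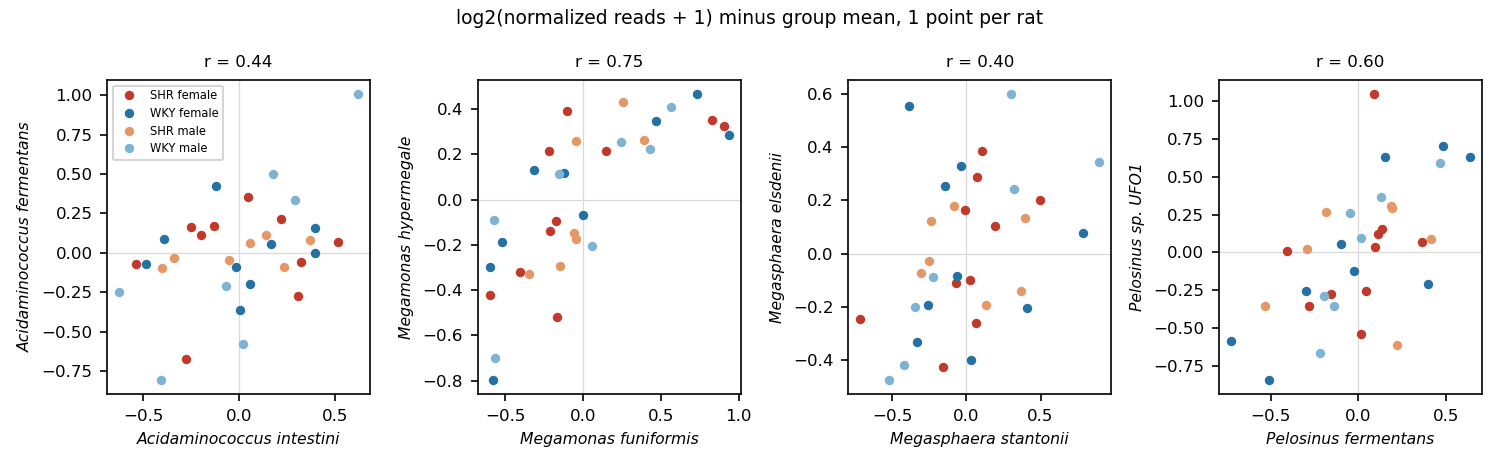
log2(normalized reads + 1) minus the group mean for the 2 species of 4 genera, 1 point per rat and colours for groups. Points of Megamonas rise together in every group (r = 0.75), whereas in Acidaminococcus (r = 0.44) the upper right point is WKY male 2.

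Genera that could supply lactate or succinate were read from lists of genera known to make them, and whether they feed these bacteria was not tested. The 14 lactate-producing genera, among them Lactobacillus, Streptococcus and Bifidobacterium, summed to 8.45 ± 5.95% of assigned reads in SHR females and 15.3 ± 8.9% in WKY females, and to 11.7 ± 5.4% in SHR males and 21.5 ± 12.3% in WKY males. On normalized reads limma called 0 of 14 between the strains in females, against 0.917% of all genera. There edgeR called 0, against 1.62%, and DESeq2 0, against 3.67%. In males limma called 0 of 14, against 0% of all genera, edgeR 1, against 0.917%, and DESeq2 1, against 1.83%. By limma 3 of 14 had an unadjusted p under 0.05 in females, against 233 of 1418 genera, and 4 of 14 in males, against 164. On percent 1 of 14 was called in each sex, against 10.9% of all genera in females and 5.29% in males. Limosilactobacillus, which ferments sugars to lactate, was lower in SHR females (1.52 ± 1.5% against 3.43 ± 1.94% in WKY females, limma adjusted p 0.0271) and in SHR males (1.35 ± 0.78% against 5.52 ± 4.19% in WKY males, limma adjusted p 0.0370).

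Of 13 succinate-producing genera 12 were in the tables, and they summed to 27.9 ± 9.4% of assigned reads in SHR females and 25.1 ± 12.7% in WKY females, and to 21.5 ± 11.5% in SHR males and 14.7 ± 11.3% in WKY males. On normalized reads limma called 0 of 12 in females and 0 of 12 in males, and edgeR and DESeq2 called 1 each in each sex. The shares of all genera called are those given above beside the lactate producers. By limma 2 of 12 had an unadjusted p under 0.05 in each sex, against 233 of 1418 genera in females and 164 in males. On percent 2 of 12 were called in females, against 10.9% of all genera, and 1 of 12 in males, against 5.29%. Parabacteroides, which releases succinate, was higher in SHR females (2.75 ± 1.81% against 0.503 ± 0.266% in WKY females, limma adjusted p 0.0111) and in SHR males (2.69 ± 3.55% against 0.282 ± 0.197% in WKY males, limma adjusted p 0.0107), and Actinobacillus was higher in SHR females (0.0252 ± 0.0057% against 0.0162 ± 0.0027% in WKY females, limma adjusted p 0.0234). Between WKY females and WKY males, where Acidaminococcus differed, limma on normalized reads called 1 of 14 lactate producers and 2 of 12 succinate producers, against 2.4% of all genera. Lacticaseibacillus was lower in females (-0.77 ± 0.17, limma adjusted p 0.0311), and the succinate producers Bacteroides (1.37 ± 0.39, 0.0483) and Duncaniella (0.94 ± 0.27, 0.0483) were higher. On percent 0 of 14 and 0 of 12 were called, against 0% of all genera. There 5 of 14 and 6 of 12 had an unadjusted p under 0.05, against 137 of 1418 genera. On recovered reads edgeR called 3 lactate and 0 succinate producers and DESeq2 3 of each. No share of all genera is given for these tools between the sexes of WKY, so whether the lists stand out cannot be told. The other lactate users, 7 genera found of 8 listed, such as Anaerostipes and Desulfovibrio, summed to 1.23 ± 0.31% in SHR females and 0.915 ± 0.213% in WKY females. In males they summed to 1.22 ± 0.28% in SHR and 1.05 ± 0.37% in WKY. Between the strains 0 of 7 were called in either sex by limma, edgeR or DESeq2. On normalized reads 0 had an unadjusted p under 0.05, against 233 of 1418 genera in females and 164 in males. On percent 0 were called, and 3 of 7 had an unadjusted p under 0.05 in females, against 452 of 1418 genera, and 0 in males, against 407.

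Functions of the whole community were read from the deposited table of functional subsystems, which are groups of genes that share a pathway and which the files do not tie to a taxon. Of 15 subsystems whose names hold lactate, propionate, succinate, acrylate or cobalamin terms, limma called 4 between the strains in females, against 8.42% of all 1057 subsystems. In males it called 0, against 2.46%. There 4 of the 15 had an unadjusted p under 0.05, a count with no share of all subsystems beside it. Cobalamin, the cofactor of the methylmalonyl-CoA route from succinate to propionate, was higher in SHR females, with 458.6 ± 26.8 normalized reads against 376.3 ± 73.2 in WKY females (log2 difference 0.31 ± 0.096, limma adjusted p 0.0377). In males it averaged 394.4 ± 42.0 in SHR and 451.1 ± 80.8 in WKY (-0.18 ± 0.11, limma adjusted p 0.386). Subsystems of the route itself, and Cobalamin synthesis, were not called in females. Propionyl-CoA to Succinyl-CoA Module had a log2 difference of -0.042 ± 0.32 (limma adjusted p 0.9995), Propionate-CoA to Succinate Module one of -0.95 ± 0.39 (limma adjusted p 0.117, at means of 0.961 ± 1.34 normalized reads in SHR females and 2.43 ± 1.71 in WKY females) and Cobalamin synthesis one of 0.22 ± 0.11 (limma adjusted p 0.213). The 3 that were lower in SHR females share only letters with the search terms. The Alpha-acetolactate operon, part of acetoin synthesis, had 3.65 ± 3.67 against 12.4 ± 8.3 normalized reads (limma adjusted p 0.0379), and a putative diaminopropionate ammonia-lyase cluster 0.709 ± 1.193 against 3.62 ± 3.08 (0.0166). Phenylpropionate Degradation was listed at 0 in all SHR females and at no more than 0.933 in a WKY female. The subsystem Lactate utilization averaged 93.6 ± 30.2 normalized reads in SHR females and 118.0 ± 39.3 in WKY females (log2 difference -0.33 ± 0.21, limma adjusted p 0.341).

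The models deposited by the authors list 2 of the 27 species. In the authors' deposited table of their female model, Phascolarctobacterium faecium had a log2 fold change of -0.582 ± 0.160 (SE) and an adjusted p of 0.00951. In the authors' deposited table of their general model, Acidaminococcus fermentans had a log2 fold change of 0.616 ± 0.185 and an adjusted p of 0.00586. The direction of these folds is not stated in the files. In the authors' deposited table of the female model, all 158 species also tested here had the sign opposite to SHR minus WKY in females, as had 30 of 30 in males for the male model. For the authors' deposited table of the general model, which took all rats, it was 263 of 326 against the differences in females and 301 of 326 against those in males. WKY over SHR is thus the likely direction of these folds. Rows of these tables were matched by taxon identifier, because the name column paired with the identifier in only 2 of 187, 1 of 383 and 2 of 33 matched rows of the female, general and male tables.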

How the data were processed

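Cecal contents of 33 rats were sequenced as shotgun metagenomes, per the labels' protocols. The submitters' processing notes name FastQC 0.11.5, cutadapt 2.6, Trimmomatic 0.36 and DESeq2. Neither the classifier nor its database is given in the sources used. The authors deposited bacterial species and genera as percent of all assigned reads of a sample. The deposited normalized tables of taxa and functions hold a signal, which is reads over each library's size factor. The authors' deposited model tables hold log2 fold changes, p-values, mean normalized counts and standard errors, for rows past their threshold.

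Whole reads were recovered for 100% of values (tolerance 0.01 reads), equal in both tables for 5543 species. Families are sums of species. Values were tested as log2(normalized reads + 1) with limma 3.58.1 (trend and robust, R 4.3.3), in 1 fit of 33 rats with 4 group means, 2-sided, Benjamini-Hochberg adjusted over 4641 species, 1418 genera, 382 families or 1057 functions. Taxa needed a normalized value of 10 in 7 rats. limma was used because the tables hold no raw counts; edgeR 4.0.16 and DESeq2 1.42.0 on recovered reads were alternatives. The percent scale took log2(percent + what 1 read is worth in a median library). Intervals are the log2 difference ± 1.96 SE, a normal approximation. The tests were tried on simulated data.

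Species and genera named were all 11 genera, the 12 most abundant species, members called, and those with the lowest p for strain in females, in males and for strain by sex; others named were chosen after their values were seen. The members and lists were chosen with earlier results of these data known.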

Additional observations from a re-analysis of the deposited data

Results flagged for a closer look

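Of 124 groups of rats tested, 31 named members in 4 groups each, 5 held a rat far from the rest of its group, and chance gives such a gap in about 1 in 20 groups. All 5 were in WKY females. WKY female 5 had 698.6 normalized reads of Selenomonas, where the other WKY females had 432.0 to 546.4. The same rat had 193.8 of Selenomonas ruminantium, where the others had 119.4 to 148.3, and 103.9 of Selenomonas sp. oral taxon 920, where the others did not exceed 72.2. These 3 values share reads, since both species belong to the genus. WKY female 1 had 647.7 normalized reads of Veillonellaceae, where the others had 377.8 to 492.8. WKY female 3 had 41.25 of Methylomusa, below the 60.8 to 86.9 of the others.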

How the results depend on the processing

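No filter on low values and a pseudocount of 10 left all 15 counts of called members the same. For strain in females the count of species was 5 on percent, 2 with edgeR, 3 with DESeq2, 1 with a stricter filter, 1 with a centred log-ratio and 2 without the 3 shallowest libraries, against 0. The count of genera was 1 under each of these 6 settings, against 0, and that of families 2 on percent. In males DESeq2 and percent each called 1 species, percent, edgeR and DESeq2 each 1 genus, and percent 1 family, against 0. Between the sexes of WKY the species count was 3 with DESeq2 and 1 with the stricter filter, against 0, and on percent 0 genera and 0 families were called, against 1 each. For strain by sex edgeR, DESeq2, the stricter filter and the centred log-ratio each called 1 family, against 0. For the counts above, shares of all features called stand in the Results for percent, edgeR and DESeq2. They are not given for the other settings, with rats left out or for several other counts by edgeR and DESeq2. A higher count there cannot be told from more calls over all features.

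Leaving out 1 rat at a time gave 0 to 2 species and 0 to 1 genera for strain in females, 0 to 1 genera and 1 to 2 families between the sexes of WKY, and 0 to 1 families for strain by sex. Species were called in females without SHR female 5, 7 or 9 or WKY female 1. Phascolarctobacterium was called in 12 of 33 such fits. In WKY the count of families was 2 without WKY female 1 or WKY male 7. Acidaminococcaceae was called for strain by sex without SHR female 9, SHR male 3, WKY female 5 or 9 or WKY male 6 or 7. Other counts stayed at 0.

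Some strain differences that were not called turned direction. On percent, where the median of all taxa shifts upward, those in males became 0.18 (Veillonellaceae), 0.27 (Selenomonadaceae), 0.016 (Acidaminococcaceae), 0.22 (Selenomonas), 0.14 (Megasphaera), 0.19 (Veillonella), 0.32 (Pectinatus and P. frisingensis), 0.39 (Sporomusa), 0.39 (Methylomusa), 0.30 (S. ruminantium), 0.048 (M. stantonii), 0.23 (M. elsdenii), 0.18 (S. sputigena), 0.30 (M. funiformis) and 0.13 (Selenomonas sp. oral taxon 126). Those in females became 0.32 (Sporomusaceae), 0.31 (Megasphaera), 0.37 (Megamonas), 0.32 (Veillonella), 0.27 (Pelosinus), 0.074 (Pectinatus and P. frisingensis), 0.29 (Methylomusa), 0.11 (M. elsdenii), 0.33 (S. sputigena), 0.24 (M. funiformis) and 0.092 (P. fermentans). Megamonas in females was 0.0063 with edgeR and 0.013 with the centred log-ratio. Sporomusa in males was 0.0036 with edgeR and 0.025 with DESeq2, and Methylomusa with DESeq2 was 0.0016 in females and 0.012 in males. Without the 3 shallowest libraries Veillonellaceae in females was -0.0028, Megamonas in males -0.025, Dialister in males -0.043, Sporomusa in males 0.0062, and Methylomusa 0.034 in females and 0.022 in males.

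With 1 rat left out, values that turned ran from -0.010 to 0.088 for Veillonellaceae, -0.087 to 0.072 for Megamonas, -0.12 to 0.043 for Veillonella, -0.0016 to 0.12 for A. fermentans and -0.10 to 0.044 for S. sputigena in females. In males they ran from -0.074 to 0.11 for Megamonas, -0.054 to 0.12 for Dialister, -0.25 to 0.047 for Pectinatus and P. frisingensis, -0.078 to 0.057 for Sporomusa, -0.091 to 0.055 for Methylomusa, -0.065 to 0.12 for M. hypermegale and -0.055 to 0.19 for D. hominis. The cause was not tested. No paired analysis was possible because the labels give no number shared between groups. Depth limits the rare species most, with a median of 12 reads for Dialister massiliensis.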
